A study of Triticum aestivum with 12 samples.

Results

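A set of 3 genes of wheat that are annotated as raffinose synthase or galactosyltransferase genes were followed in roots and shoots of plants grown with and without salt. TraesCS7A02G236500 and TraesCS7B02G134600 carry the description "Probable galactinol--sucrose galactosyltransferase 1", and TraesCS7A02G134100 carries the description "Raffinose synthase family protein". They are 3 of the 83486 genes in the table of expression values. They were chosen by these descriptions from tables that list only genes which the authors called different between groups of the same 12 libraries. Their levels and differences are therefore given as a description, with standard errors and with no p-value.

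Raffinose is a soluble sugar built on sucrose. Raffinose synthase moves a galactose unit from galactinol to sucrose, stachyose synthase extends raffinose by a further galactose, and alpha-galactosidases take galactose off again. Raffinose and galactinol are known as compatible solutes and antioxidants that accumulate in leaves under drought, cold and salt, and as storage sugars of seeds. The family is also known to hold proteins that act as alkaline alpha-galactosidases, as shown in melon, so a description in an annotation does not settle the activity of a protein.

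The plants were of the Najran wheat cultivar, grown for 4 weeks from germination. Control plants received only tap water, with 0 mM added NaCl, whereas the salt-treated ones were given a solution of 200 mM NaCl, and no other treatment or genotype entered the 4 groups. Roots and shoots were harvested apart, which gave 3 control root, 3 salt-treated root, 3 control shoot and 3 salt-treated shoot libraries. Each sample pooled material of more than 1 plant, and the study describes the samples of a group as biological replicates. Roots and shoots came from the same plants, but no label says which root and shoot samples belong together, so the comparisons between tissues treat the 12 libraries as independent.

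The values are normalized counts, the authors' estimates of reads per gene after their own scaling. The normalized counts of a library summed to between 13890189 and 15863307 in roots and between 18565098 and 25371113 in shoots. Differences between shoots and roots within a treatment are given on this deposited scale. They were not recomputed with equal library totals. Tissue identity was checked by genes of the light reactions and of carbon fixation. The summed level of 65 chlorophyll a-b binding protein genes was 218 to 935 in the root libraries and at least 287955 in the shoot libraries, and that of 23 Rubisco small chain genes was 184 to 1264 in roots and at least 431629 in shoots. No gene matched the descriptions fixed as root markers, so roots were not checked by markers of their own. In whole roots or shoots, fewer cells of a type and less RNA per cell cannot be told apart.

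TraesCS7A02G236500 lies on chromosome 7A from 209693821 to 209698303 on the plus strand of the wheat assembly in Ensembl Plants. Its description was projected from the Arabidopsis gene AT1G55740, which is known there as a seed imbibition protein gene. The gene had normalized counts of 686, 818 and 672 in the control root libraries and of 285, 242 and 221 in the salt-treated root libraries. Every salt-treated root lay below every control root. The mean fell from 725 ± 80.6 to 249 ± 32.7 (SD, n = 3), a log2 fold change of -1.54 (SE 0.18) or a 2.91-fold lower level.

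In shoots the same gene had normalized counts of 408, 342 and 365 in control plants and of 282, 374 and 244 in salt-treated plants. These groups overlapped, because the second salt-treated replicate lay above a pair of the controls. The means were 372 ± 33.5 and 300.0 ± 66.4, with a log2 fold change of -0.33 (SE 0.19). In order of level, control roots stood apart above the other groups, and control shoots, salt-treated shoots and salt-treated roots followed with each overlapping the next. Shoots were below roots in control plants by a log2 difference of -0.96 (SE 0.15), whereas in salt-treated plants shoots and roots overlapped, with a log2 difference of 0.25 (SE 0.20).

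TraesCS7A02G134100 lies on chromosome 7A from 85911103 to 85915219 on the minus strand. Its description was projected from AT5G20250, known in Arabidopsis as a gene whose transcript rises in the dark. The normalized counts were 469.8, 423 and 398 in control roots and 151, 195 and 153 in salt-treated roots, again with every salt-treated root below every control root. The mean fell from 430.2 ± 36.6 to 166 ± 24.8, a log2 fold change of -1.37 (SE 0.18) or a 2.59-fold lower level.

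In shoots this gene went the other way. The normalized counts were 203, 133 and 169 without salt and 206, 362 and 321 with salt. All salt-treated shoots lay above all control shoots, but the lowest salt-treated shoot at 206 was close to the highest control at 203. The mean was 168 ± 35.1 without salt and 296 ± 81.2 with it, a log2 fold change of 0.79 (SE 0.25) or a 1.73-fold higher level. On the deposited scale the order of the tissues turned with the treatment. Shoots were below roots in control plants (log2 difference -1.37, SE 0.19) and above them in salt-treated plants (log2 difference 0.80, SE 0.24), without overlap in either case. The library sums were 13890189 to 14183797 in salt-treated roots and 18565098 to 19748450 in salt-treated shoots. Whether the order in salt-treated plants holds with equal library totals was not tested. Ranked by level, control roots stood above salt-treated shoots, and these above control shoots and salt-treated roots, which overlapped.

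TraesCS7B02G134600 lies on chromosome 7B from 164585536 to 164590079 on the plus strand, and its description was projected from the same Arabidopsis gene as that of TraesCS7A02G236500. In roots its normalized counts were 277, 191 and 208 without salt and 249, 257 and 237 with salt, so that the groups overlapped. The means were 225 ± 45.4 and 248 ± 9.93, with a log2 fold change of 0.15 (SE 0.19). In shoots the normalized counts were 115, 118 and 158 without salt and 337, 418 and 253 with salt. Every salt-treated shoot lay above every control shoot. The mean was 131 ± 24.1 without salt and 336 ± 82.4 with it, a log2 fold change of 1.34 (SE 0.23) or a 2.54-fold higher level.

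Control shoots held the lowest levels of TraesCS7B02G134600 and stood apart from the other groups, while salt-treated shoots, salt-treated roots and control roots each overlapped the next in that order. Shoots were below roots in control plants by a log2 difference of -0.78 (SE 0.22), and the tissues overlapped in salt-treated plants, with a log2 difference of 0.41 (SE 0.20). The second salt-treated shoot library was the highest of its group for each of the 3 genes, at 374, 362 and 418 normalized counts.

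**Figure D1:**
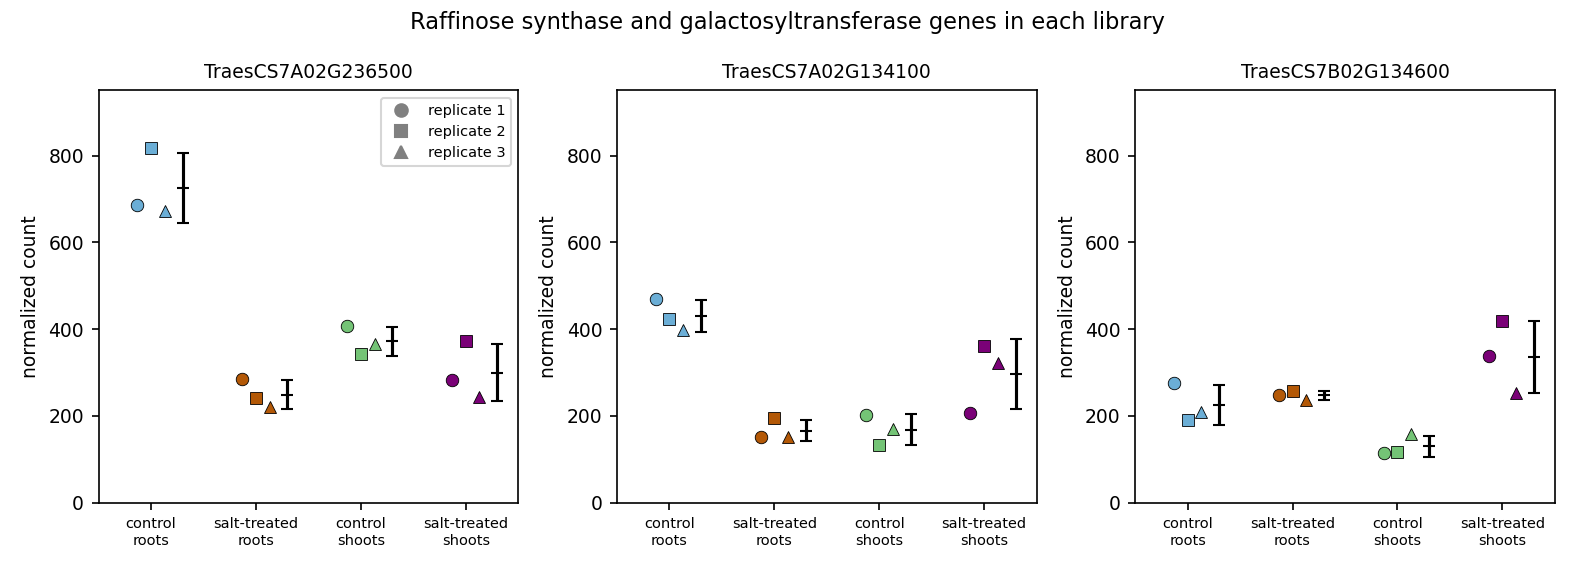
Normalized count (y axis) of TraesCS7A02G236500, TraesCS7A02G134100 and TraesCS7B02G134600 in each library, by tissue and treatment (x axis), with a marker shape per replicate and the group mean and SD. The 7A genes are lowest or near lowest in salt-treated roots, at 221 to 285 and 151 to 195, and the 7B gene is lowest in control shoots, at 115 to 158.

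In salt-treated roots, 2 of the 3 genes were lower than in control roots with no overlap of the groups, a state seen in 20.2% of the 44737 genes tested in roots. In salt-treated shoots, 2 of the 3 were higher with no overlap, against 16.4% of the 44647 genes tested in shoots. All 3 were lower in control shoots than in control roots with no overlap, against 30.2% of genes, and 1 of the 3 was higher in salt-treated shoots than in salt-treated roots with no overlap, against 28.6%. The choice of the genes used these contrasts, so nothing is read from these shares.

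The response to salt was more positive in shoots than in roots for each of the 3 genes. The shoot response minus the root response was 1.21 (SE 0.25) on the log2 scale for TraesCS7A02G236500, which fell in roots. It was 2.17 (SE 0.32) for TraesCS7A02G134100, which moved in opposite directions, and 1.19 (SE 0.30) for TraesCS7B02G134600, which was higher in salted shoots. A share of 1.17% of the 38669 genes that could be compared in both tissues was, like TraesCS7A02G134100, lower in salted roots and higher in salted shoots with no overlap in either tissue, and 1.38% went the other way round. The choice of the gene used the same contrasts.

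**Figure D2:**
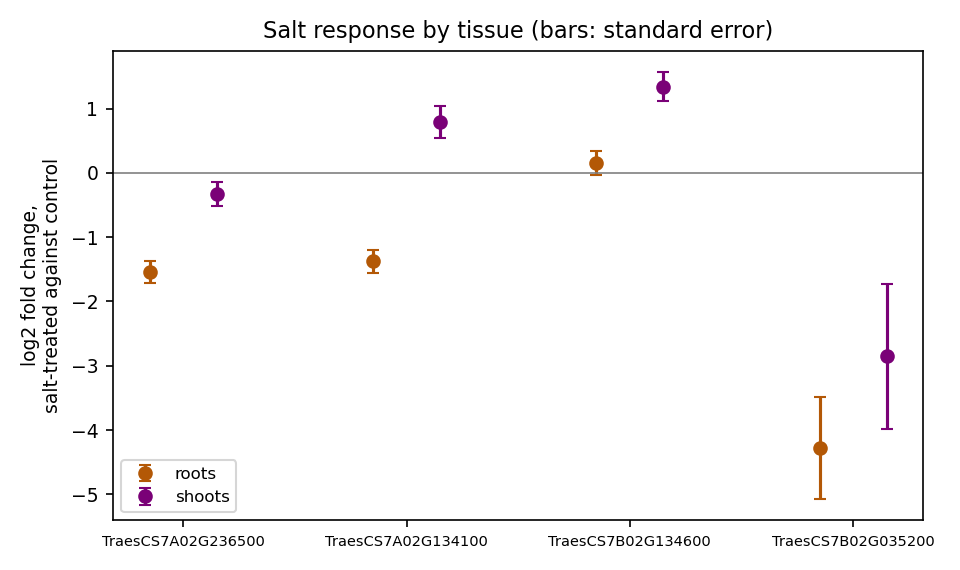
Log2 fold change of salt-treated over control plants (y axis) in roots and in shoots for the 3 genes and TraesCS7B02G035200, with bars for the standard error from the fit. Root values are -1.54, -1.37 and 0.15 and shoot values are -0.33, 0.79 and 1.34 for TraesCS7A02G236500, TraesCS7A02G134100 and TraesCS7B02G134600. For TraesCS7B02G035200, a further gene of the family, the values are -4.27 in roots and -2.85 in shoots.

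TraesCS7A02G236500 and TraesCS7B02G134600 share a description and lie on the A and B copies of chromosome 7, although the files do not say that they are homoeologues. Bread wheat carries related copies of most genes on its A, B and D genomes, and reads of near-identical copies can be divided between them during quantification. Whether that happened here was not tested. Normalized counts were not divided by transcript length, so the share of each gene in the sum is read only between groups.

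TraesCS7A02G236500 made up 76.2 ± 4.92% of the summed normalized counts of this pair in control roots (SD, n = 3) and 69.8% to 78.0% in control shoots. In salt-treated plants its share was 48.2% to 53.4% in roots and 47.3 ± 1.81% in shoots. The shares of all control libraries, 69.8% to 81.1%, lay above those of all salt-treated libraries, 45.5% to 53.4%. The log2 ratio of TraesCS7A02G236500 to TraesCS7B02G134600 changed with salt by -1.70 (SE 0.25) in roots and by -1.68 (SE 0.19) in shoots, and the changes differed by 0.02 (SE 0.31). The authors listed TraesCS7A02G236500 only for salt in roots and TraesCS7B02G134600 only for salt in shoots. The choice of the genes thus in part fixed a shift of this ratio in both tissues, and the shift is given as a description only.

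The sum of the pair behaved differently in the tissues. In roots it was 951 ± 65.1 normalized counts in control and 497 ± 38.1 in salt-treated plants. In shoots it was 503 ± 36.7 in control plants (460.1 to 524) and 636 ± 148 in salt-treated plants (497 to 791). These groups overlapped on the deposited scale, and the sums were not recomputed with equal library totals. The ratio shifted in both tissues, with a lower A-genome gene in roots and a higher B-genome gene in shoots.

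**Figure D3:**
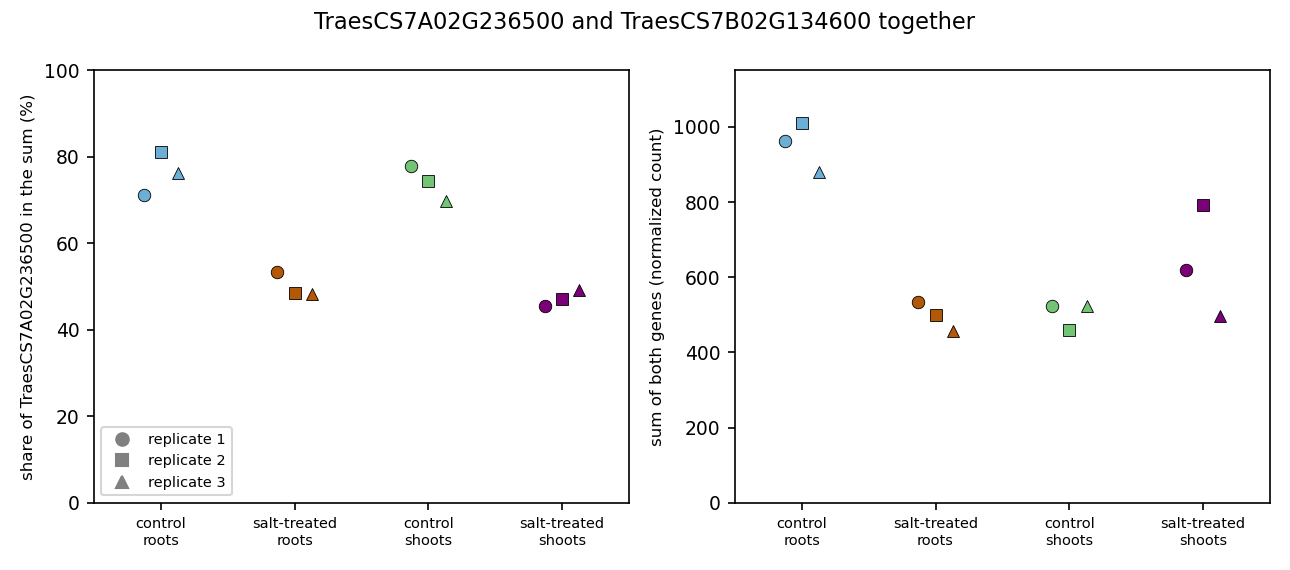
Share of TraesCS7A02G236500 in the summed normalized counts of TraesCS7A02G236500 and TraesCS7B02G134600 (percent) and the sum itself (normalized counts), per library, by tissue and treatment, with a marker shape per replicate. Control libraries sit at 69.8% to 81.1% and salt-treated libraries at 45.5% to 53.4% in both tissues, while the sum is lower with salt in roots only.

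Across the 12 libraries the Pearson correlation of log2 levels was 0.71 between TraesCS7A02G236500 and TraesCS7A02G134100, 0.39 between TraesCS7A02G134100 and TraesCS7B02G134600, and -0.17 between TraesCS7A02G236500 and TraesCS7B02G134600. After the mean of each tissue was subtracted the values were 0.69, 0.36 and -0.23. The libraries share tissue, treatment and scaling, so these values are a description.

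A further gene with the description "Raffinose synthase family protein", TraesCS7B02G035200, was also listed in the authors' tables for roots and for shoots. It lies on chromosome 7B from 34387130 to 34390366 on the minus strand, and its description was projected from the same Arabidopsis gene as that of TraesCS7A02G134100. The normalized counts were 421, 59.1 and 427 in control roots and 11.1, 18.3 and 5.42 in salt-treated roots. The groups did not overlap, and the log2 fold change was -4.27 (SE 0.80, adjusted p = 0.0160 by limma), a 19.4-fold lower level that missed the threshold of 0.01.

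In shoots the normalized counts of TraesCS7B02G035200 were 731, 24.6 and 656 without salt and 28.1, 43.3 and 24.3 with salt. The second control replicate was far below the others in both tissues, and in shoots it lay within the salt-treated range. The log2 fold change in shoots was -2.85 (SE 1.13, adjusted p = 0.129 by limma), and without the second control shoot it was -4.44 (adjusted p = 0.000805). The responses of the tissues differed by 1.42 (SE 1.59, adjusted p = 0.689) with that library and by -0.17 (adjusted p = 0.956) without it. Without 1 shoot library at a time, the adjusted p of the shoot fold change ran from 0.000805 to 0.313. The gene was taken from the authors' tables of these same contrasts, so its p-values are not independent evidence.

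In roots TraesCS7A02G134100 was also lower with salt, but by less (log2 fold change -1.37 against -4.27). In shoots TraesCS7A02G134100 was higher with salt, while the groups of TraesCS7B02G035200 overlapped. TraesCS7A02G134100 made up 52.8%, 87.8% and 48.2% of the summed normalized counts of the 2 genes in control roots and 21.8%, 84.4% and 20.5% in control shoots. In salt-treated plants it made up 91.4% to 96.6% in roots and 88.0% to 93.0% in shoots. The log2 ratio of TraesCS7A02G134100 to TraesCS7B02G035200 rose by 3.03 (SE 1.03) in roots and by 3.68 (SE 1.47) in shoots, and the changes differed by 0.64 (SE 1.79).

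**Figure D4:**
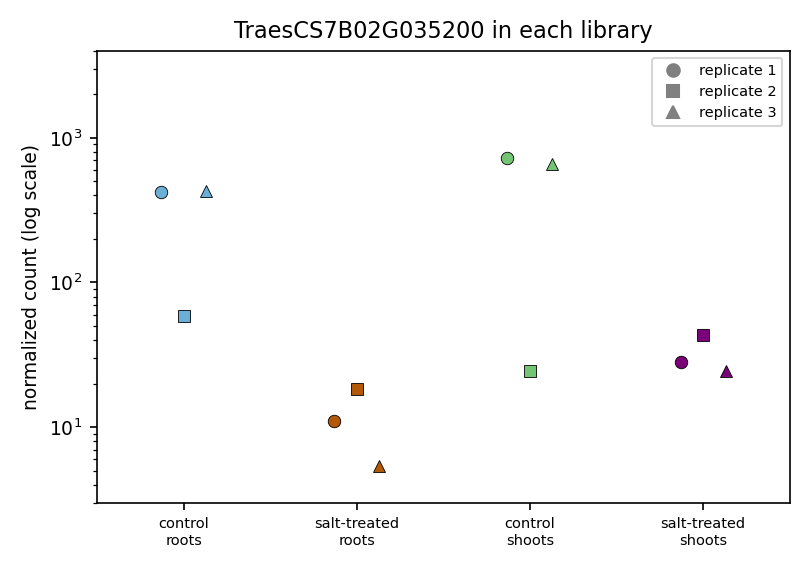
Normalized count (log scale, y axis) of TraesCS7B02G035200 in each library by tissue and treatment, with a marker shape per replicate. Replicate 2 of the control plants, at 59.1 in roots and 24.6 in shoots, lies far below the other controls, which are at 421 to 731.

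The gene described as stachyose synthase, TraesCS1A02G434900 on chromosome 1A from 585615984 to 585620070, was low in all libraries. Its normalized counts were 11.8, 8.55 and 1.87 in control roots and 0.764, 16.7 and 43.6 in salt-treated roots, with a log2 fold change of 0.67 (SE 1.19, adjusted p = 0.741). The fold change was 0.02 without control root replicate 3 and 2.00 without salt-treated root replicate 1 (adjusted p = 0.995 and 0.175). It was listed at 0 in 2 control shoots and in all 3 salt-treated shoots, and at 3.19 in control shoot replicate 3, and was not tested in shoots.

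The genes whose levels followed those of each gene most closely were ranked by Pearson correlation of log2 levels over the 12 libraries, among 32869 other genes with a mean of at least 50 normalized counts. For TraesCS7A02G236500, 47 genes had a correlation above 0.9, led by TraesCS3B02G420700 (0.962), the dirigent protein gene TraesCS4A02G012400 (0.961) and TraesCS4B02G069600 (0.959). Dirigent proteins are known to steer the coupling of lignan precursors. The mean normalized count of TraesCS4A02G012400 fell from 470.1 to 134 in roots given salt, and was 194 in shoots without salt and 138 with it.

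For TraesCS7A02G134100 only 5 genes passed 0.9 in that ranking, led by TraesCS3D02G320000 (0.942), TraesCS4B02G179300 (0.928) and TraesCS7A02G355300 (0.924). TraesCS4B02G179300 is described as a hexosyltransferase, a broad class of enzymes that transfer a sugar unit. Its mean normalized count was 475 in roots without salt and 144 with it, and 128 in shoots without salt and 294 with it, beside 430.2, 166, 168 and 296 for TraesCS7A02G134100. For TraesCS7B02G134600, 7 genes passed 0.9, led by TraesCS6B02G379700 (0.940), TraesCS5A02G098200 (0.917) and TraesCS5B02G084100 (0.911).

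With tissue means subtracted, the closest genes changed in part. TraesCS7B02G037600 (0.979), TraesCS2A02G159500 (0.975) and TraesCS6B02G280500 (0.975) were closest to TraesCS7A02G236500. TraesCS6D02G041600 (0.955), TraesCS7A02G355300 (0.948) and TraesCS3D02G320000 (0.945) were closest to TraesCS7A02G134100. TraesCS4A02G042300 (0.963), of an undecaprenyl pyrophosphate synthetase family, TraesCS4B02G224800 (0.955) and TraesCS5B02G067100 (0.955) were closest to TraesCS7B02G134600. TraesCS2A02G159500 had mean normalized counts of 3.35 and 0.255 in control and salt-treated roots, beside 210.1 and 171 in shoots. TraesCS4B02G224800 had means of 4.00, 5.16 and 9.45 in control roots, salt-treated roots and control shoots, and reached the minimum mean through salt-treated shoots, at 304. For these genes the likeness rests in part on values near 0. These are likenesses over a small number of libraries that share 4 groups, and they carry no p-value.

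The wider pathway was followed in 36 genes, taken by description from the tables of genes called by the authors, so their counts are not independent evidence. The list held 12 genes for substrates (10 sucrose synthase genes and 2 uridylyltransferase genes), 20 for breakdown of galactosides and sucrose (11 alpha-galactosidase, 7 beta-galactosidase and 2 invertase genes) and 4 for inositol. No gene carried the description galactinol synthase. In roots 31 genes were tested by limma at an adjusted p under 0.01 and a log2 fold change of at least 1 in size, and 1 was higher and 2 were lower with salt, together 9.68%. Among all genes tested in roots 3.47% passed, 1.17% higher and 2.3% lower. In shoots 33 were tested, and 4 were higher and 1 was lower, together 15.2%, against 5.28% of all genes, 2.3% higher and 2.99% lower. The median log2 fold change of the list was -0.08 in roots and 0.50 in shoots, beside -0.02 and -0.01 over all genes tested. In shoots 2 of the 33, TraesCS4B02G167500 and TraesCS2D02G105500, passed the filter on low values only through 1 of the treatments. Without such genes 4 of 31 were called in shoots, 12.9%, against 4.59% of all genes, and the median was 0.47.

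Sucrose synthase, which converts sucrose and UDP to fructose and UDP-glucose, held 5 of these 8 calls. TraesCS4A02G140000 rose from 291 ± 85.9 to 1077 ± 297 normalized counts in roots (log2 fold change 1.89, SE 0.30, adjusted p = 0.00990) and from 293 ± 26.1 to 2101 ± 185 in shoots (2.84, SE 0.14, adjusted p = 6.46e-05). In shoots TraesCS4B02G167500 had 1.90 ± 3.29 normalized counts in control plants and 49.0 ± 12.2 in salt-treated plants (4.70, SE 0.78, adjusted p = 0.00617). It entered the test only because it was high with salt, and its fold change depends on the pseudocount, with 2.32 at a pseudocount of 10 and 6.96 at 0.1 (adjusted p = 0.00116 and 0.0241). TraesCS2A02G168200 rose by a log2 fold change of 1.40 (SE 0.23, adjusted p = 0.00571) and TraesCS7B02G063400 by 1.07 (SE 0.18, adjusted p = 0.00639), both in shoots. The shoot call of TraesCS4A02G140000 held with each of the 6 shoot libraries left out in turn. Its root call held only without salt-treated root replicate 3, and that of TraesCS7B02G063400 in shoots was lost without each of the 6 shoot libraries. The call of TraesCS2A02G168200 held only without salt-treated shoot replicate 1. That of TraesCS4B02G167500 was lost without control shoot replicate 1 or 3, and the gene did not pass the filter on low values without any 1 salt-treated shoot.

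The other calls were in breakdown and inositol use. The alpha-galactosidase gene TraesCS2B02G122900 fell from 493 ± 64.6 to 223 ± 23.9 normalized counts in roots (log2 fold change -1.14, SE 0.18, adjusted p = 0.00895). The beta-galactosidase gene TraesCS4B02G220500 fell from 1236 ± 147 to 607 ± 12.4 in shoots (-1.02, SE 0.14, adjusted p = 0.00272). TraesCS7B02G269900, described as myo-inositol oxygenase 1, an enzyme that opens inositol to glucuronate, fell from 1721 ± 176 to 243 ± 22.4 in roots (-2.82, SE 0.16, adjusted p = 0.000739). The call of TraesCS2B02G122900 was lost without each of the 6 root libraries, that of TraesCS4B02G220500 held only without control shoot replicate 3, and that of TraesCS7B02G269900 was lost without control root replicate 2 or 3. Inositol is both the acceptor from which galactinol is made and the product released when raffinose is formed.

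The counts changed whichever library was left out. Each such fit also has fewer libraries to test with, so these changes do not single out a library. The share of all genes that passed in these fits is not given. The 3 root calls became 0 without control root replicate 2 or 3 (lowest adjusted p 0.0175 and 0.0113, with 14 and 16 genes at an unadjusted p under 0.05), 1 without control root replicate 1 or salt-treated root replicate 1 or 2, and 4 without salt-treated root replicate 3. The 5 shoot calls became 2 without control shoot replicate 2 or 3 or salt-treated shoot replicate 1 or 2, 1 without salt-treated shoot replicate 3, and 4 without control shoot replicate 1. At an adjusted p under 0.05 by limma, 7 genes of the list were called in roots and 9 in shoots, where 12% and 10.2% of all genes passed. The difference between tissues was tested by limma in 28 genes of the list and passed in 2, TraesCS7B02G269900 and the alpha-galactosidase gene TraesCS1B02G182000, while 1.9% of all 38669 genes passed. At an adjusted p under 0.05 it passed in 6 of the 28, against 5.25% of all genes.

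**Figure D5:**
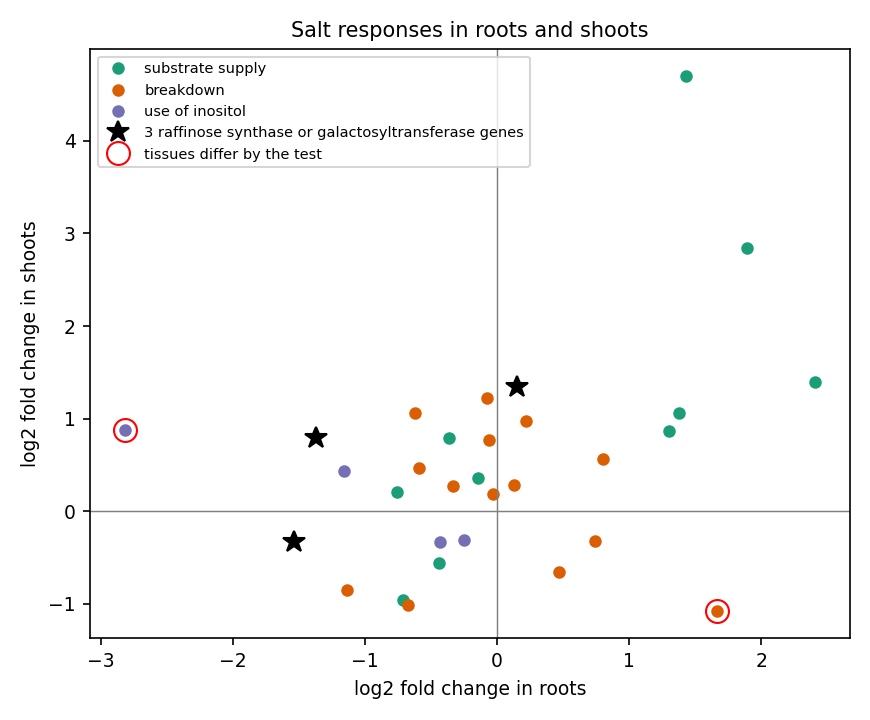
Log2 fold change of salt-treated over control plants in roots (x axis) and in shoots (y axis) for the 28 pathway genes tested in both tissues and for the 3 raffinose synthase or galactosyltransferase genes. TraesCS7A02G134100 lies at -1.37 in roots and 0.79 in shoots, and the myo-inositol oxygenase gene TraesCS7B02G269900 at -2.82 and 0.87.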

How the data were processed

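RNA of 12 samples was sequenced from poly(A) libraries whose kit does not keep strand, so overlapping and antisense genes cannot be told apart. The authors checked reads with FastQC 11.8, trimmed them with Trimmomatic 0.36 and quantified them with Salmon 0.12.0 against Ensembl Plants wheat transcripts. The authors then summed the estimates to genes and normalized them with DESeq2. The deposited signal is this normalized count, whose scaling differs between genes and libraries, so whole reads could not be recovered from it and it gives no depth in reads. The deposited comparison tables also hold the authors' fold changes and p-values, which were not used. Descriptions and coordinates were taken from them. No sequence was used here.

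Log2(normalized count + 1) was fitted with limma 3.58.1 in R 4.3.3 with a variance trend, over genes with at least 10 normalized counts in at least 3 of 6 libraries, with Benjamini-Hochberg adjustment over all genes. Fold changes on this scale understate changes of low genes. The thresholds were an adjusted p under 0.01 and a log2 fold change of at least 1 in size. A model with a coefficient for each of the 4 groups gave the test of the difference between tissues. The median SD within a group on the log2 scale was 0.27 in both groups of control libraries, 0.30 in roots given salt and 0.23 in shoots given salt. The fit was tested on simulated data. Figures were drawn with matplotlib 3.10.9.

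The genes and lists were chosen with earlier results of these data known. Named genes were the 3 genes, others of their family in the tables, the 3 most alike by each measure, up to 6 pathway calls per tissue by size and up to 4 by difference between tissues. Alternatives covered the pseudocount, the filter, the scaling, the thresholds, the replicate block and each library left out.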

Additional observations from a re-analysis of the deposited data

Results flagged for a closer look

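The salt response of TraesCS7A02G134100 was 2.17 higher in shoots than in roots on the log2 scale. Every salt-treated root lay below the control roots and every salt-treated shoot above the control shoots, and this difference was not tested. In shoots the lowest salt-treated library, at 206, was close to the highest control, at 203. Of all genes compared in both tissues 1.17% had this pattern, and the choice of the gene used the same contrasts.

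In the pathway list the response of the myo-inositol oxygenase gene TraesCS7B02G269900 was 3.69 higher in shoots than in roots (SE 0.46, adjusted p = 0.00108, limma). It fell in roots (log2 fold change -2.82). In shoots its groups overlapped, at 224 ± 144 normalized counts without salt and 366 ± 60.4 with it (0.87, adjusted p = 0.168, limma). The response of the alpha-galactosidase gene TraesCS1B02G182000 was lower in shoots than in roots by a log2 difference of -2.75 (SE 0.40, adjusted p = 0.00238, limma). Its mean went from 14.2 ± 3.86 to 47.0 ± 11.1 normalized counts in roots and from 519 ± 134 to 245 ± 61.7 in shoots. Both passed the threshold in the fit without each of the 12 libraries.

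For 3 more alpha-galactosidase genes the groups stood apart in opposite directions in the tissues, and the limma test of the difference did not pass 0.01. Of all genes compared in both tissues 1.17% stood apart as lower in roots and higher in shoots, and 1.38% the other way round. The shoot response minus the root response was 1.06 for TraesCS1A02G164800 (adjusted p = 0.0238), -1.13 for TraesCS1A02G164900 (adjusted p = 0.0340) and 1.68 for TraesCS1B02G181800 (adjusted p = 0.0224).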

How the results depend on the processing

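The fold changes of the 3 raffinose synthase or galactosyltransferase genes kept their direction in all 129 alternative values, and none moved by more than the spread between replicates. The filters and replicate blocks leave these values unchanged by construction. Within a tissue, leaving out 1 library cannot move a value by more than that spread. For these settings the size of the movement was therefore limited in advance and shows nothing. Without 1 library at a time, the root value ran from -1.64 to -1.45 for TraesCS7A02G236500, from -1.49 to -1.31 for TraesCS7A02G134100 and from 0.04 to 0.31 for TraesCS7B02G134600, and the shoot value from -0.50 to -0.19, from 0.63 to 1.03 and from 1.17 to 1.53. Equal library totals shifted the median over all genes by 0.14 in roots and 0.21 in shoots. Relative to that median the shoot values were -0.31, 0.81 and 1.36. The pathway counts of 3 in roots, 5 in shoots and 2 differences between tissues became 7, 9 and 6 at an adjusted p under 0.05, where 12%, 10.2% and 5.25% of all genes passed. The root count was 1 with a pseudocount of 0.1, and the count of differences was 1 with a mean of at least 50 and 4 with equal totals. Leaving out 1 library gave 0 to 4 in roots, 1 to 4 in shoots and 2 to 4 differences. The difference for TraesCS7B02G035200 ran up to 2.36 without 1 library, and was -0.17 without the second control shoot. For named genes 139 alternative tests kept their side of the threshold, 39 fell below it and 1 rose above it, and the cause was not tested. Of 36 correlations, 2 moved, to 0.803 for TraesCS2A02G159500 with a pseudocount of 10 and to 0.907 for TraesCS3B02G420700 with equal totals. With 3 libraries a group, spread limits the precision.

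Control and salt-treated libraries of the same replicate number deviated together only weakly, with correlations of 0.0233 to 0.135 in roots and 0.00623 to 0.0709 in shoots, so the numbers were not taken to pair them. With a replicate block the counts were 2 in roots, 4 in shoots and 3 differences. In neither tissue did every sample correlate best with its own number. Root and shoot libraries of the same number and treatment had correlations of 0.157 to 0.389 in control and 0.0827 to 0.352 in salt-treated plants, each best with its own number, which is a hint from the data only. With a replicate block within treatment, chosen after seeing the data, 3 differences between tissues passed, and the SE of the differences of the 3 raffinose synthase or galactosyltransferase genes was 0.24, 0.25 and 0.29 in place of 0.25, 0.32 and 0.30. For TraesCS2B02G122900 in roots (adjusted p = 0.0172) and TraesCS7B02G063400 in shoots (adjusted p = 0.0134) the limma call was lost under the block.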

Other observations

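Alpha-galactosidases, which remove galactose from raffinose and its relatives, were the largest breakdown group of the list. In shoots 11 were tested by limma, with fold changes in both directions and a median log2 fold change of 0.76, and none was called. By limma's unadjusted p under 0.05, 7 were higher and 3 lower with salt, where 30.4% of all genes reached that p. Among the 7, TraesCS2D02G105500 passed the filter on low values only through salt-treated shoots, so it could only come out higher. It also enters the median. All 11 were taken from the tables of genes called by the authors, so the choice in part fixed these counts and nothing is read from the comparison with all genes. In roots 8 were tested, with 1 call and a median of -0.19. TraesCS1A02G164800 and TraesCS1A02G164900 lie near each other on chromosome 1A, from 297744935 to 297751007 and from 297872019 to 297874932, and TraesCS1B02G181800 and TraesCS1B02G182000 near each other on chromosome 1B, from 328820458 to 328826535 and from 328938350 to 328943889. The first gene of each pair had a lower level in every salt-treated root and a higher level in every salt-treated shoot than in the controls, and the second gene had the opposite. For TraesCS1A02G164800 the mean normalized count was 2586 ± 463 in roots without salt and 1707 ± 179 with it, and 1016 ± 181 in shoots without salt and 1392 ± 73.5 with it. For TraesCS1A02G164900 they were 340.4 ± 27.4 in roots and 1302 ± 337 in shoots without salt, and 810.3 ± 95.9 in shoots with salt, with a log2 fold change of 0.47 (SE 0.18) in roots.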
